A study of Mus musculus with 10 samples.

Results

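The JAK-STAT pathway and its cytokine feedback genes were followed in mouse haematopoietic cells made to overexpress HOXB4 from a retrovirus. The 10 genes are Osm, Jak2, Stat3, Stat5a, Stat5b, Socs1, Socs2, Socs3, Cish and Pim1. Every probe set that the array annotation assigns to these symbols was taken, which gave 24 of the 45101 probe sets on the array. Socs2 had 6 of them, Stat3 had 4, Socs3 had 3, Jak2, Pim1, Stat5a and Stat5b had 2 each, and Cish, Osm and Socs1 had 1 each.

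The cells were sorted as LSK cells, which lack lineage markers and carry Sca1 and c-kit, and for GFP, which the vector expresses together with HOXB4. HOXB4 is a homeobox protein whose overexpression lets blood stem cells multiply in culture. HOXB4-ER, called HOXB4ERT in the sample titles, is a fusion to an oestrogen receptor domain that enters the nucleus in the presence of 4-hydroxytamoxifen (TMX). HOXB4const is the unmodified protein, which is active without TMX and served as the control for effects of TMX itself. All cells, controls included, were grown for 14 days in serum-free medium with 10 nM TMX, stem cell factor, FLT3 ligand, IL-11 and IL-3, sorted, and held in the same medium for another 12 h. The 10 Affymetrix arrays formed 5 groups of 2: HOXB4-ER cells given 10 nM TMX for 1 h, HOXB4-ER cells deprived of it for 1 h or for 4 h, and HOXB4const cells given 10 nM TMX or deprived of it, both for 1 h. The only HOXB4-ER group with TMX was the 1 h one, so between it and the 4 h group time and withdrawal changed together. All groups overexpressed HOXB4 from the vector, and LSK cells without it were not analysed here.

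In this pathway a cytokine binds its receptor, Janus kinases such as JAK2 on the receptor phosphorylate STAT proteins, and the STATs move to the nucleus and switch on genes. Among the genes they switch on are their own brakes, Cish and the Socs genes, whose proteins dampen the receptor, so that the level of these transcripts is widely used as a readout of recent cytokine signalling. In blood progenitors IL-3 acts mainly through JAK2 and STAT5, cytokines that share the gp130 receptor, such as IL-11 and oncostatin M (Osm), act mainly through STAT3, and the kinase gene Pim1 is a target of both STATs.

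STAT dimers bind an element of TTC and GAA with 3 bases between them, TTCNNNGAA, which reads the same on both strands. It was searched in RefSeq promoter windows (GRCm38.p6) that run from 250 bases before to 50 bases after a gene's start. Windows were at hand for 8 of the 10 genes, 11 windows in all. Osm and Socs2 had none and were not searched. The element was found in those of Cish and Socs3, which are shown because these brakes carry a match close to the start, with the element in capitals. The Cish window lies at chr9:107296409-107296708 on the plus strand and the Socs3 window at chr11:117969317-117969616 on the minus strand, both printed 5′ to 3′.
Cish: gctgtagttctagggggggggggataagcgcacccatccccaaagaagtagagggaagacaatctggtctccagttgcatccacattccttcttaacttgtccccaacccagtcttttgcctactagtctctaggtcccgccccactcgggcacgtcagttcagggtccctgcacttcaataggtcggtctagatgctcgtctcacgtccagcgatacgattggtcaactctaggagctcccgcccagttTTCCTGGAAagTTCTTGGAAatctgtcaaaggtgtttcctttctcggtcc
Socs3: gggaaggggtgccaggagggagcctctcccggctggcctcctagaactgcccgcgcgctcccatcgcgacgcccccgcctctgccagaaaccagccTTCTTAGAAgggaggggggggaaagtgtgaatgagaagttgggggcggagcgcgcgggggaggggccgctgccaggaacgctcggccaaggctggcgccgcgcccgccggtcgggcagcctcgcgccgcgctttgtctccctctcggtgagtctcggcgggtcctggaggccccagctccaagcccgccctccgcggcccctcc
The Cish window held 2 elements, TTCCTGGAA, whose first base is the start base (counted as 0), and TTCTTGGAA, whose first base is 11 bases after it. The Socs3 window held TTCTTAGAA, whose first base lies before the start, at position -154. Of all 32851 windows, 2726 (8.3%) held the element and 150 (0.457%) held 2 or more. A match is a description of the sequence and not a measured binding site. In the values below, Pearson's r between Cish and Socs3 over the 10 arrays was 0.02.

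The deposited values are log2 signals with 1 value per probe set and array. Array medians ran from 3.96 to 5.32, and the highest belonged to replicate 1 of HOXB4const without TMX. Of the 10 LSK markers 8 were measured, all above the median probe set, with a mean level between 7.40 and 8.34 on every array. Differences were tested with limma over 45037 probe sets, and its adjusted p is the Benjamini-Hochberg value over all of them. The number of arrays limits the precision: the median 95% interval of a difference between 2 groups reached 2.02 log2 units to either side over all probe sets and 1.33 over those at or above the median mean signal. The labels call the replicates biological, but none of the sources used here says what the numbers 1 and 2 stand for. Where they are not separate cultures or animals, the p-values measure a spread that may be technical. Below, each pair of values is replicate 1 followed by replicate 2, and the brightest probe set stands for the gene unless another is named. Signals of different probe sets are not compared, since each has its own response.

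Osm encodes the cytokine oncostatin M. Its probe set 1438767_at read 5.49 and 5.42 in HOXB4-ER cells with TMX, 6.0 and 5.34 after 1 h without it, 5.92 and 4.79 after 4 h, 6.0 and 4.82 in HOXB4const cells with TMX and 6.49 and 5.44 without. The lowest replicate 1 array lay just above the highest replicate 2 array, and the groups overlapped.

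Jak2 encodes the kinase used by the IL-3 receptor. Probe set 1421066_at read 8.91 and 8.07 in HOXB4-ER cells with TMX, 8.59 and 8.05 after 1 h without, 9.30 and 8.57 after 4 h, 8.35 and 8.47 in HOXB4const cells with TMX and 8.24 and 8.59 without. Replicate 1 was the higher array in the 3 HOXB4-ER groups and the lower one in both HOXB4const groups. The second probe set, 1421065_at, ran from 6.36 to 7.91, and its 5 replicate 1 arrays all lay above its 5 replicate 2 arrays.

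Stat3 encodes the STAT of the gp130 cytokines. Probe set 1460700_at stayed between 9.44 and 9.70 on all 10 arrays, the narrowest range of the 24 probe sets at 0.26 log2 units. Probe set 1426587_a_at read 7.18 and 5.91 in HOXB4-ER cells with TMX, 7.68 and 5.93 after 1 h without, 6.75 and 6.0 after 4 h, 7.85 and 6.24 in HOXB4const cells with TMX and 8.23 and 5.78 without. Replicate 1 was thus higher in each group on 1 Stat3 probe set while another was level, and Pearson's r between them over the 10 arrays was 0.21. Of the other Stat3 probe sets, 1459961_a_at ran from 5.25 to 6.73 and 1424272_at from 2.25 to 5.74.

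Stat5a and Stat5b encode the closely related STATs downstream of the IL-3 receptor. Stat5a probe set 1421469_a_at read 8.49 and 8.70 in HOXB4-ER cells with TMX, 8.09 and 8.95 after 1 h without, 8.96 and 9.09 after 4 h, 8.69 and 8.86 in HOXB4const cells with TMX and 8.53 and 8.75 without. Replicate 2 was the higher array in each of the 5 groups, the reverse of Osm, Pim1 and Socs3. The dimmer Stat5a probe set 1450259_a_at ran the other way, from 4.85 to 6.95 on replicate 1 and from 3.58 to 4.92 on replicate 2 arrays. The Stat5b probe set 1422103_a_at stayed between 7.78 and 8.51 on all arrays.

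Among the brakes, Socs3, which blocks gp130 receptors and JAK kinases, had the widest spread. Probe set 1455899_x_at read 7.97 and 4.16 in HOXB4-ER cells with TMX, 7.73 and 5.30 after 1 h without, 7.62 and 5.61 after 4 h, 8.74 and 4.65 in HOXB4const cells with TMX and 6.75 and 6.11 without. Replicate 1 was higher in each group, and all 5 replicate 1 arrays lay above all 5 replicate 2 arrays. The other Socs3 probe sets showed the same order, with 6.31 to 7.91 against 2.65 to 4.00 for 1416576_at and 6.70 to 8.10 against 4.03 to 5.24 for 1456212_x_at. Pearson's r among the 3 over the 10 arrays was between 0.84 and 0.95.

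Socs2 encodes a brake on growth hormone and STAT5 signalling. Probe set 1418507_s_at read 8.39 and 6.65 in HOXB4-ER cells with TMX, 7.39 and 6.35 after 1 h without, 6.62 and 4.79 after 4 h, 7.73 and 7.28 in HOXB4const cells with TMX and 6.97 and 8.03 without. In HOXB4-ER cells both replicates were lowest at 4 h. Probe set 1449109_at read 7.62 and 5.46 with TMX, 7.17 and 5.92 after 1 h without and 5.83 and 3.87 after 4 h in HOXB4-ER cells, and 7.16 and 6.17 with and 6.89 and 5.81 without TMX in HOXB4const cells. The other 4 Socs2 probe sets were dimmer, with means from 2.02 to 5.48, with Pearson's r over the 10 arrays between -0.14 and 0.09 with 1418507_s_at and between 0.25 and 0.36 with 1449109_at. Between these brighter probe sets r was 0.84.

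Cish and Socs1, the brakes on STAT5 and on interferon signalling, showed no such split. Cish probe set 1448724_at read 5.43 and 5.52 in HOXB4-ER cells with TMX, 6.69 and 5.36 after 1 h without, 5.56 and 5.60 after 4 h, 5.2 and 5.90 in HOXB4const cells with TMX and 6.12 and 5.87 without. Its highest value came from 1 array, replicate 1 of HOXB4-ER at 1 h without TMX. Socs1 probe set 1450446_a_at was dim, between 1.31 and 3.54, with a mean at the 16.7th percentile of all probe sets.

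Pim1 encodes a survival kinase. Probe set 1435458_at read 6.87 and 5.79 in HOXB4-ER cells with TMX, 7.5 and 5.51 after 1 h without, 6.82 and 4.75 after 4 h, 7.43 and 5.72 in HOXB4const cells with TMX and 7.03 and 5.33 without. As for Socs3, all replicate 1 arrays lay above all replicate 2 arrays, while the groups overlapped. The dimmer Pim1 probe set 1423006_at ran from 0.76 to 5.23 and did not follow it.

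**Figure D1:**
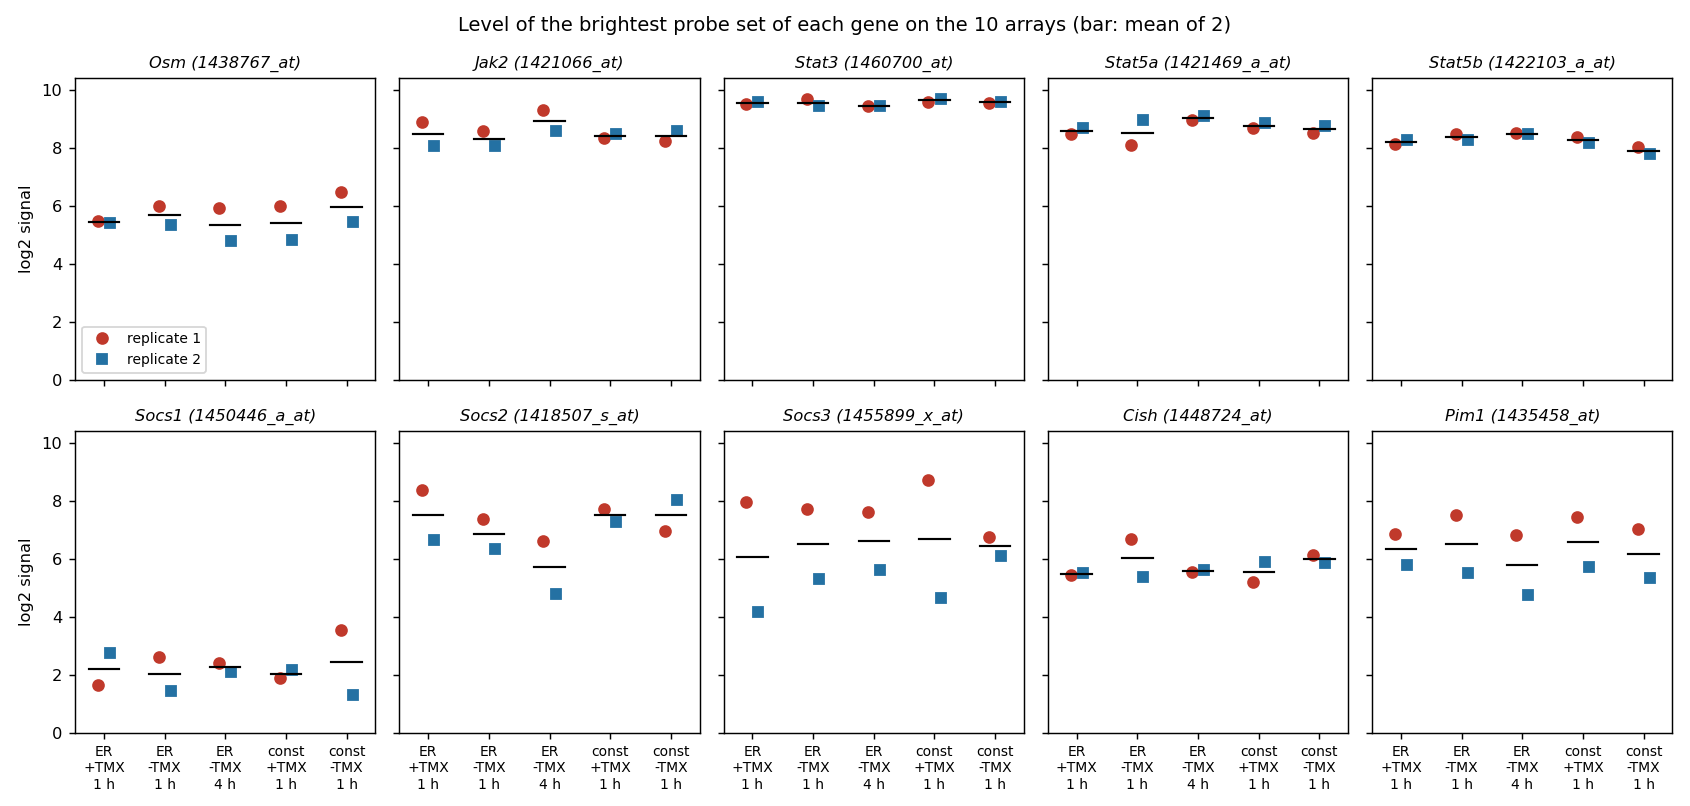
Log2 signal of the brightest probe set of each gene on the 10 arrays, by group (HOXB4-ER and HOXB4const, with or without TMX) and replicate number, with bars at the mean of 2. Socs3 and Pim1 lie higher on every replicate 1 array than on any replicate 2 array, Stat3 stays between 9.44 and 9.70, and Socs2 is lowest at 4 h in HOXB4-ER cells.

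The design asks what happens to transcripts when HOXB4 leaves the nucleus. None of the 24 probe sets passed an adjusted p of 0.05 by limma in the comparisons of 1 h without TMX, 4 h without TMX, 4 h against 1 h, HOXB4const without against with TMX, the difference between the constructs' 1 h responses, or HOXB4-ER against HOXB4const with TMX. In each of these 6 comparisons 0.0% of all 45037 probe sets passed. At an unadjusted p under 0.05 there was 1 of 24 after 1 h (4.76% of all probe sets), 1 after 4 h (3.35%), 1 between 4 h and 1 h (5.68%), 0 in HOXB4const cells (4.34%), 1 for the difference between responses (3.77%) and 1 between the constructs (4.38%). The members' counts were close to these backgrounds. The comparisons of 1 h, 4 h and HOXB4const against HOXB4-ER share the HOXB4-ER arrays with TMX, and they are given side by side only.

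After 1 h without TMX the brightest probe sets of the 10 genes differed by between -0.65 (Socs2) and 0.55 (Cish) in HOXB4-ER cells. In HOXB4const cells the range was -0.39 to 0.56. The median array signal itself shifted by 0.39 and 0.31 in these comparisons. Relative to that shift Osm, Pim1 and Stat5b turned from higher to lower in HOXB4-ER cells. Both ends of the HOXB4-ER range turned sign when 1 array was left out: Socs2 was at 0.22 without replicate 1 with TMX, and Cish at -0.12 without replicate 1 after 1 h. With an array left out, its group held only 1 replicate number, so the difference between the numbers entered such values. Within replicates 1 and 2 Socs2 differed by -1.0 and -0.3, both lower, and Cish by 1.26 and -0.16. The 95% intervals rest on a spread that includes the differences between replicate numbers described below. For Socs3 at 1 h in HOXB4-ER cells the interval was -3.65 to 4.54 and for Pim1 -2.39 to 2.75, while for Stat3 it was -0.91 to 0.92. With the replicate number as a block the limma intervals were -1.74 to 2.63 for Socs3, -0.80 to 1.15 for Pim1 and -0.82 to 0.83 for Stat3, and each still included 0. After 4 h, where the median signal shifted by -0.03, Jak2 differed by 0.45 ± 0.51 and Stat5a by 0.43 ± 0.45 (difference ± limma standard error), both higher in each replicate. Leaving out 1 array gave Jak2 values from 0.03 (without replicate 2 with TMX) to 0.87 (without replicate 1 with TMX), while Stat5a stayed between 0.33 and 0.53. Pim1 differed by -0.54 ± 1.09 (-0.54 ± 0.40 with the block) and Socs3 by 0.55 ± 1.74 (0.55 ± 0.89 with the block). Both turned sign when 1 array was left out: Pim1 was at 0.49 without replicate 2 at 4 h, and Socs3 at -1.36 without replicate 2 with TMX and -0.45 without replicate 1 at 4 h. Within replicates 1 and 2 Pim1 differed by -0.05 and -1.03 and Socs3 by -0.35 and 1.45. Other probe sets went the other way. Socs3 1416576_at was at -0.99 ± 2.21 and 1456212_x_at at -0.17 ± 1.76, both lower in each replicate. The dimmer Pim1 1423006_at was at 0.76 ± 1.18, higher in each replicate.

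**Figure D2:**
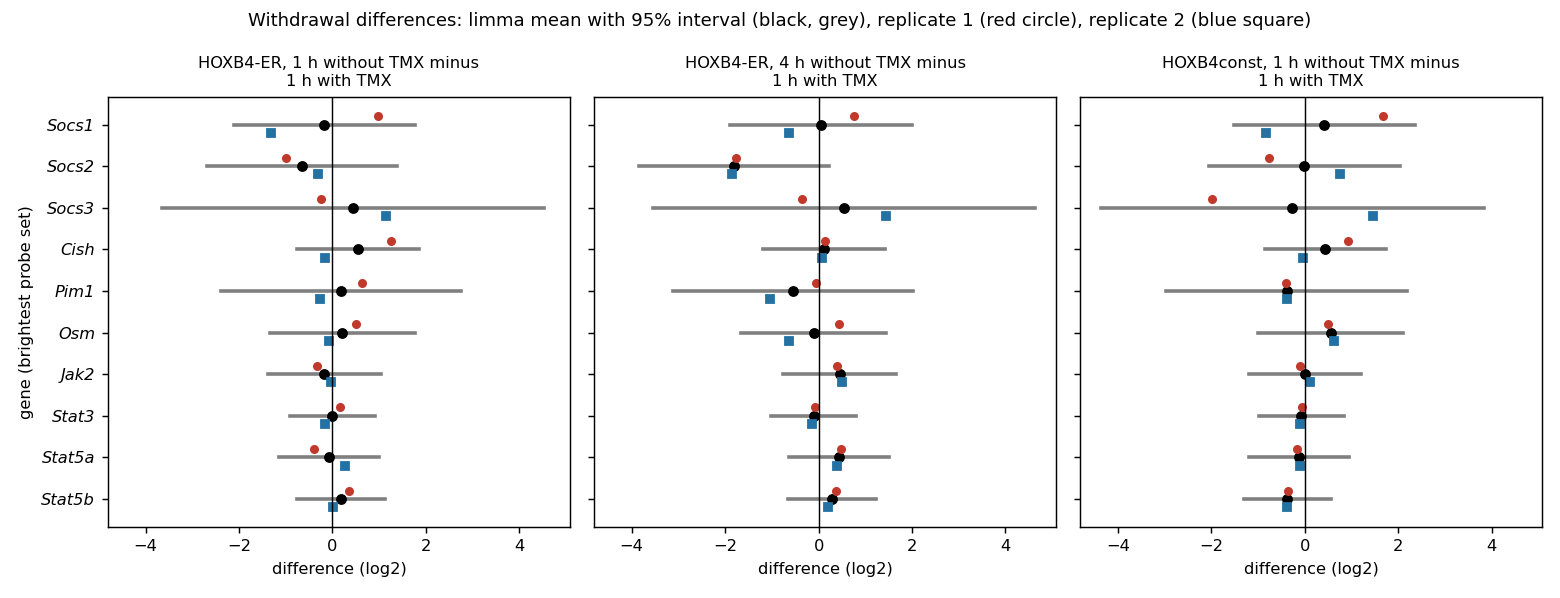
Differences in log2 signal of the brightest probe set of each gene for the 3 withdrawal comparisons, with the limma mean (black) and its 95% interval (grey) and the difference within replicate 1 (circles) and replicate 2 (squares). Each of these intervals, from the fit without the replicate number, includes 0, and the Socs2 interval at 4 h in HOXB4-ER cells (-3.85 to 0.23) comes nearest to leaving it.

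Socs2 had the largest difference of the 10 after 4 h. Its brightest probe set was lower by a difference of -1.81 ± 0.87 (limma unadjusted p = 0.0741, adjusted p = 1.0), with -1.77 within replicate 1 and -1.86 within replicate 2. The 2 arrays at 4 h lay below the 2 arrays with TMX. Of the 24 probe sets 2 lay wholly below in this way, Socs2 and Stat3 1460700_at (-0.10), against 15.2% of all probe sets. The other probe set, 1449109_at, differed by -1.69 ± 1.00, with -1.79 and -1.59 within the replicates and overlapping groups. With the replicate number as a block it was at -1.69 ± 0.45 (limma unadjusted p = 0.0101, adjusted p = 1.0). The Socs2 difference was -0.65 ± 0.87 after 1 h without TMX and -0.01 ± 0.87 in HOXB4const cells after 1 h. Leaving out 1 array at a time moved the 4 h difference of the brightest probe set between -2.73 (without replicate 1 at 4 h) and -0.90 (without replicate 2 at 4 h), and it was -0.94 without replicate 1 of HOXB4-ER with TMX and -2.68 without replicate 2. As a mean of all 6 Socs2 probe sets the 4 h difference was -0.39 ± 0.94. The 3′ to 5′ gap of Gapdh, a measure of RNA quality given below, was also wider at 4 h than with TMX within each replicate number.

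The unadjusted p-values under 0.05 belonged to the dimmer Stat5b probe set 1422102_a_at in 4 of the 6 comparisons. Between 4 h and 1 h the value belonged to the dimmest Stat3 probe set, 1424272_at. Their means, 4.47 and 4.66, lay a little above the median mean signal of 4.05. The Stat5b probe set read 3.22 and 2.58 in HOXB4-ER cells with TMX, 4.63 and 4.70 after 1 h without, 5.36 and 4.89 after 4 h, 5.28 and 4.55 in HOXB4const cells with TMX and 4.70 and 4.74 without. Only the 2 arrays of HOXB4-ER with TMX were low, and they lay below the other 8. The difference was 1.77 ± 0.48 after 1 h (limma unadjusted p = 0.00716, adjusted p = 0.753) and 2.23 ± 0.48 after 4 h (limma unadjusted p = 0.00209, adjusted p = 1.0). It was -2.02 ± 0.48 for HOXB4-ER against HOXB4const with TMX (limma unadjusted p = 0.0036, adjusted p = 0.807). The same 2 arrays enter all of these values. The brighter Stat5b probe set differed by 0.18 ± 0.40 after 1 h and 0.29 ± 0.40 after 4 h, so the 2 probe sets of the gene did not give the same picture. The Stat3 probe set 1424272_at differed by -1.96 ± 0.76 between 4 h and 1 h without TMX (limma unadjusted p = 0.0353, adjusted p = 0.823), and its replicate 1 array at 4 h was at 2.25.

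On the brightest probe sets of Socs3 and Pim1 the difference between the replicate numbers was larger than any difference between groups, while for Socs2 and Cish it was not. A limma fit of group and replicate number gave replicate 2 minus replicate 1 over all 10 arrays. None of the 24 probe sets passed an adjusted p of 0.05, and neither did any of the 45037 (0.0%). At an unadjusted p under 0.05 there were 10 of the 24, all lower in replicate 2, against 13.7% of all probe sets, or 10.5% lower. The share was larger among brighter probe sets, to which 19 of the 24 belong. A limma fit of those at or above the median mean signal alone had 5968 of 22519 in either direction. Several of the 10 belonged to the same gene, and of the brightest probe sets only those of Osm, Pim1 and Socs3 were among them. The median difference of the 24 was -0.73, against -0.15 over all probe sets, and the median array signal shifted by -0.32. Relative to that shift Cish and Stat5b turned from lower to higher in replicate 2, while Socs3 and Pim1 kept their direction.

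Socs3 had the largest of these differences. It was -3.65 ± 0.32 for 1416576_at (limma adjusted p = 0.132), -2.81 ± 0.40 for 1456212_x_at (adjusted p = 0.148) and -2.60 ± 0.56 for 1455899_x_at (adjusted p = 0.193). Within single groups the last ran from -4.10 in HOXB4const cells with TMX to -0.64 in HOXB4const cells without. Pim1 differed by -1.71 ± 0.25 (limma adjusted p = 0.148), between -2.07 and -1.08 in the 5 groups. Leaving out 1 array at a time kept Socs3 1455899_x_at between -3.08 and -2.22 and Pim1 between -1.86 and -1.62. Osm differed by -0.82 ± 0.27 (limma adjusted p = 0.298) and Socs2 by -0.80 ± 0.48 on its brightest and -1.49 ± 0.29 on its second probe set. Stat3 differed by 0.00 ± 0.21 on 1460700_at and by -1.57 ± 0.31 on 1426587_a_at, and Stat5a by 0.31 ± 0.23 on its brighter and -1.58 ± 0.46 on its dimmer one. Cish differed by -0.15 ± 0.35.

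Of the 24 probe sets 7 had all 5 replicate 1 arrays above all 5 replicate 2 arrays, against 3.76% of all probe sets and 6.44% of those at or above the median mean signal, a class that holds 19 of the 24 and all 7. The 7 were the 3 of Socs3 and 1 each of Pim1, Osm, Jak2 and Stat3. Replicate 1 was higher within each of the 5 groups for 9 of 24, against 11.0% of all and 15.9% of the brighter probe sets.

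Other limma fits gave other counts. With a spread that depends on signal, 8 of the 24 passed an adjusted p of 0.05 by limma, where 6.06% of all probe sets did (4.13% lower in replicate 2, the direction of all 8). They were the 3 of Socs3 (adjusted p = 3.65e-05 to 0.000954), Pim1 1435458_at (0.000647), Stat3 1426587_a_at (0.00133), Socs2 1449109_at (0.00306), Jak2 1421065_at (0.0303) and Stat5a 1450259_a_at (0.0421). In a fit of the 22519 brighter probe sets alone, which changes both the spread estimate and the number of tests adjusted for, 5 of 19 passed, where 3.77% of those did (3.37% lower). Pim1 had an adjusted p of 0.024 there and the brightest Socs3 probe set, by limma, 0.0507.

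**Figure D3:**
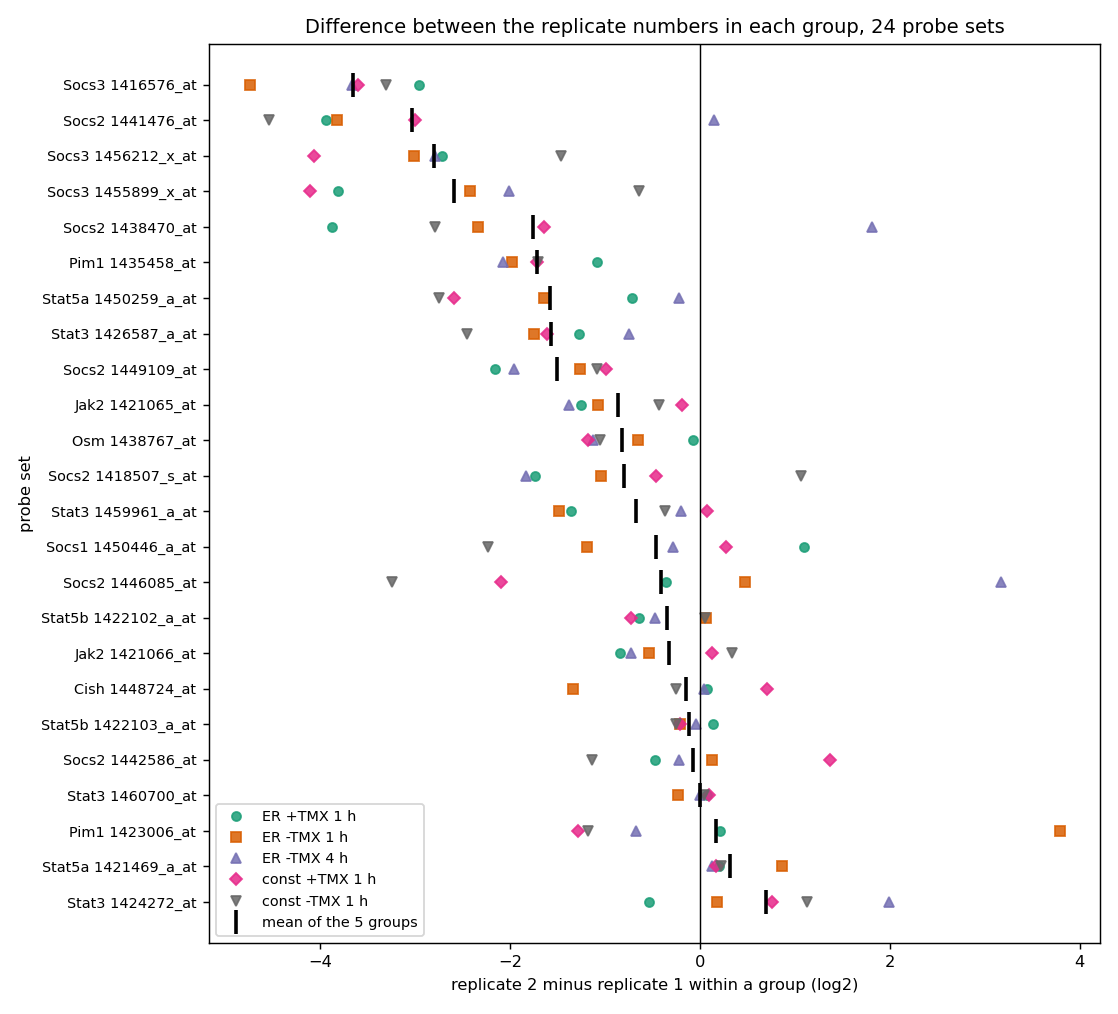
Replicate 2 minus replicate 1 in log2 signal within each of the 5 groups for all 24 probe sets, ordered by the mean of the groups (bar). Socs3 1416576_at lies between -4.74 and -2.96 in every group, Pim1 1435458_at between -2.07 and -1.08, and the points of Stat3 1460700_at and Stat5b 1422103_a_at lie near 0.

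The mean levels of the markers of some other cell types moved with the replicate number, though not every gene did. The mean of the monocyte and macrophage markers was 6.31 to 6.98 on replicate 1 and 3.87 to 5.03 on replicate 2 arrays, with 7 of 11 measured genes higher in replicate 1 in each group. Csf1r, the receptor that marks these cells, averaged 10.96 ± 0.45 on replicate 1 arrays and 7.60 ± 0.78 on those of replicate 2 (SD, n = 5), while C1qa and C1qc, complement genes of mature macrophages, averaged 0.52 and 0.55 over all arrays. Dendritic cell markers were at 5.48 to 7.91 against 4.01 to 4.62, and mast cell markers at 7.14 to 7.66 against 6.06 to 6.66. Granulocyte markers were at 6.45 to 9.38 against 5.54 to 6.36, but at only 6.45 and 6.36 in HOXB4const cells with TMX. Replicate 1 was higher in each group for 5 of 8 dendritic, 4 of 11 mast cell and 2 of 10 granulocyte genes. Of the mast cell genes 3 averaged higher in replicate 2 (Cpa3, Ms4a2 and Hdc), and of the granulocyte genes 1 (Ctsg). The lists whose means overlapped between the numbers were lymphoid, at 4.39 to 5.92 against 2.30 to 4.51, erythroid, at 3.26 to 4.84 against 3.63 to 4.33, megakaryocyte, at 6.02 to 6.82 against 5.69 to 6.64, and LSK, at 7.40 to 8.0 against 7.55 to 8.34. Overlapping means did not exclude shifts of single genes. Of the 8 LSK genes 6 were higher in replicate 2 and 2 lower, with a median difference of 0.42. At a limma unadjusted p under 0.05, 3 LSK genes were higher and 1 lower. For the lymphoid genes the median difference was -1.49, with 6 lower and 2 higher, against -1.1 for the mast cell genes. The 3′ signal of Gapdh exceeded its 5′ signal, a gap that widens with RNA degradation and with incomplete copying in amplification, by 1.10 ± 0.26 on replicate 1 arrays and 2.72 ± 1.08 on those of replicate 2 (SD, n = 5). The part of these cell types and of the Gapdh gap in the Socs3 and Pim1 differences was not tested. In HOXB4-ER cells the gap was 1.42 and 3.47 at 4 h without TMX, against 1.04 and 1.74 with TMX. Its part in the 4 h differences, that of Socs2 included, was not tested either. In such bulk samples, fewer cells of a type and less RNA per cell cannot be told apart.

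Genes around the members in the pathway were read from 6 lists, each gene by its brightest probe set. None of their measured genes passed an adjusted p of 0.05 by limma in any of the 7 comparisons. After 4 h without TMX none had an unadjusted p under 0.05 in any list. The smallest was that of the brake Socs6, at -1.34 ± 0.62 (limma unadjusted p = 0.0656). Beside it, Cblb, a ubiquitin ligase gene, was at -0.63 ± 0.60 and Pias2, a STAT inhibitor gene, at -0.39 ± 0.39. The 3 genes of smallest p in each other list did not pass either. Among kinases and STATs, Stat6 was at 0.39 ± 0.45, Tyk2 at 0.24 ± 0.48 and Jak1 at 0.21 ± 0.39. Among the receptors for the medium's cytokines, Kit was at 0.66 ± 0.69, Csf2rb, the shared subunit of the IL-3 receptor, at 0.42 ± 0.47 and its partner Il3ra at -0.50 ± 0.80. Among the other receptors, the interferon receptor gene Ifnar1 was at 0.70 ± 0.51, the G-CSF receptor gene Csf3r at -0.37 ± 0.43 and the dim Lifr at -1.87 ± 2.58. Of the cytokine genes, Il4 was at 1.02 ± 0.56, Lif at -1.98 ± 1.14 and Clcf1 at 0.72 ± 0.67. Of the targets, the transcription factor gene Cebpb was at 0.91 ± 0.68, Ccnd1 at -0.71 ± 0.72 and Junb at -1.87 ± 1.90. The Lifr, Lif and Junb values came from the replicate 2 array at 4 h, which read -1.39, 0.53 and 0.98. Within replicates 1 and 2 Lifr differed by 0.2 and -3.94, Lif by 0.25 and -4.2, and Junb by -0.06 and -3.67. 

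Between the replicate numbers the counts differed from list to list, and the differences among lists were not tested. Of the receptors for the cytokines in the medium, 3 of 6 were lower and 1 higher in replicate 2 at an unadjusted p under 0.05, with a median difference of -0.80. Il6st, which encodes gp130, differed by -1.71 ± 0.42, Flt3 by -1.16 ± 0.31, and Csf2rb2, an IL-3 receptor subunit whose probe sets may share signal with the near-identical Csf2rb, by -0.79 ± 0.27. Kit, the stem cell factor receptor, differed by 0.78 ± 0.32. Of 14 other cytokine receptors 7 were lower and 0 higher (median -0.63), with Csf1r at -3.36 ± 0.49, the GM-CSF receptor gene Csf2ra at -1.52 ± 0.30 and the interferon gamma receptor gene Ifngr1 at -1.12 ± 0.27. Csf1r is also on the monocyte marker list.

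Of 18 other STAT3 and STAT5 target genes 7 were lower and 0 higher (median -0.67), with the AP-1 gene Junb at -2.91 ± 0.55, Bcl6 at -1.02 ± 0.27 and the cyclin gene Ccnd1 at -0.93 ± 0.28. Of 13 other cytokine genes 4 were lower and 0 higher (median -0.65), with the dim Csf2 at -1.12 ± 0.35 and Il13 at -1.26 ± 0.42 and the macrophage growth factor gene Csf1 at -1.20 ± 0.44. The kinases and STATs had 1 of 6 lower (median -0.23), which was Stat2 at -1.53 ± 0.62, with Tyk2 at -0.33 ± 0.25 and Stat4 at 0.24 ± 0.24 not past it. The other brakes had 2 of 16 lower and 2 higher, with a median of -0.01. The phosphatase gene Ptpn6 differed by -0.88 ± 0.27 and Pias4 by -0.78 ± 0.26, while Socs5 differed by 0.76 ± 0.25. Over all probe sets, dim ones included, the shares were the 10.5% lower and 3.13% higher given by the fit. They are not a like background, since the lists hold only the brightest probe set of each gene. In the fit of the brighter probe sets alone, 5968 of 22519 had a limma unadjusted p under 0.05 in either direction.

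**Figure D4:**
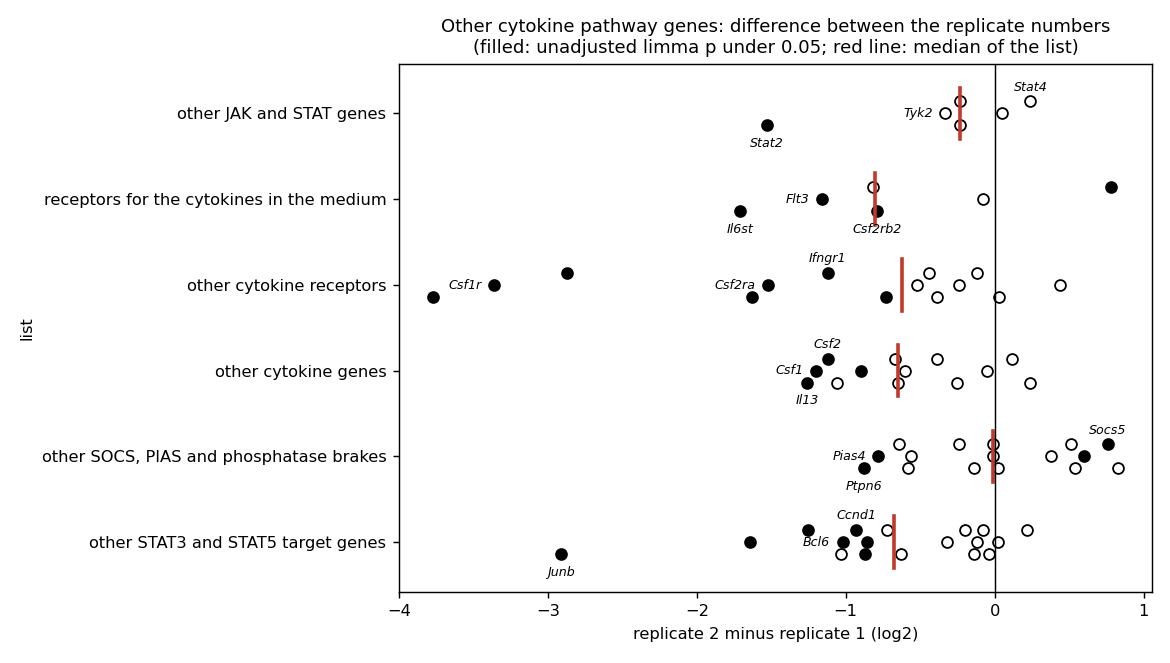
Replicate 2 minus replicate 1 in log2 signal for the genes of 6 cytokine pathway lists, with filled points for an unadjusted limma p under 0.05 and a red line at each list's median. The medians run from -0.80 for the receptors of cytokines in the medium to -0.01 for the other brakes.

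Genes most like the members were found by Pearson's r over the 10 arrays among 11340 other genes. These values describe the arrays only, since the points share their replicate numbers and medians. Each was also picked as among the highest of 11340 over only 10 arrays. The height that r reaches in such a search among unrelated genes was not computed. Socs3 was most like Csf2rb2 (0.96) and Cebpd (0.93), a transcription factor gene of myeloid cells. Pim1 was most like S100a4 and Cp (both 0.98), Osm like B4galt3 (0.96) and Dclk2 (0.95), and Jak2 like Slc43a2 (0.96) and Stk38l (0.94). Socs2 was most like Spry2 (0.93), which encodes a brake on receptor tyrosine kinases, and Sh3bp5 (0.91). Cish was most like Acrbp (0.91), Socs1 like Ddx42 (0.93), Stat3 like Zc3hav1 (0.91), Stat5a like Luc7l3 (0.95) and Stat5b like Slc4a2 (0.92). Of these probe sets that of Socs1 was dim and that of Stat3 spanned only 0.26 log2 units. Among the members themselves r was 0.82 between Pim1 and Osm, 0.79 between Pim1 and Socs3 and 0.55 between Socs2 and Pim1.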

How the data were processed

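RNA from LSK cells was amplified linearly with T7 polymerase and hybridised to 10 Affymetrix mouse arrays, per the labels' protocols. The authors deposited log2 values. Per the submitters' processing notes, GCOS and RMA were used, without the role of each. On every array the mean of the unlogged values, without the lowest and highest 2%, was 100.0, and values reached below 0, which globally scaled GCOS signals do and RMA values do not. They were therefore treated as scaled signals and not normalized again. For background correction and detection calls, nothing is stated in the sources used here.

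The tests left out 64 control probe sets of 45101. Of the other 45037, 34945 had 1 gene symbol, 932 several and 9160 none in the platform annotation. Differences came from limma 3.58.1 in R 4.3.3, with 5 group means over 10 arrays (5 residual and 2.21 prior degrees of freedom), or with group and replicate number (4 and 1.82), two-sided, adjusted within each comparison. The estimates of the fit were checked on simulated data with known changes and noise that was independent between arrays. That check does not bear on the errors or calls in the arrays used here. Errors of levels are SDs and those of differences limma's moderated standard errors. No filter on low values was applied, so all 24 member probe sets were tested.

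The members and lists were chosen with earlier results of these data known. Text names all members, the 3 genes of smallest p in each pathway list after 4 h and between replicates , Kit and the marker genes given beside a result, which were chosen after their values were seen, and the genes most like each member. Alternatives were centring, quantile normalization, a floor, the brighter probe sets alone, an intensity trend, array weights, leaving out each array, a replicate block and averaging all probe sets of a gene. Promoter sequences are RefSeq's, GRCm38.p6.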

Additional observations from a re-analysis of the deposited data

Results flagged for a closer look

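Each probe set was searched for an array far from the others of its replicate number, since a group holds 2 arrays. Of the 48 sets of 5 arrays 3 held one, where chance gives a share of about 0.05. For all 3 the gene had a brighter probe set.

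The Stat5b probe set 1422102_a_at was at 2.58 on replicate 2 of HOXB4-ER with TMX, where the other replicate 2 arrays were at 4.55 to 4.89. The Stat3 probe set 1424272_at was at 2.25 on replicate 1 of HOXB4-ER at 4 h without TMX, where the other replicate 1 arrays were at 4.62 to 5.12. The Socs2 probe set 1446085_at was at 0.13 on the same array, with 3.05 to 3.97 on the others.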

How the results depend on the processing

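With limma, 0 probe sets passed in each of the 7 comparisons, under centring, quantile normalization, array weights and each left-out array too. With values below log2 5 set to 5, 4 passed after 1 h without TMX in HOXB4-ER cells, 3 after 4 h, 12 between 4 h and 1 h, 48 in HOXB4const cells, 37 for the difference between the responses, 13 between the constructs and 101 between the replicate numbers. An intensity trend gave 2728 between the replicate numbers and the brighter probe sets alone gave 850. The cause was not tested. Of the 70 values of the members, 17 changed sign with centring, 14 on averaging all probe sets of a gene, 4 with quantile normalization, 3 with the floor, 1 with array weights and between 3 and 16 with 1 array left out, most without replicate 1 of HOXB4-ER at 1 h without TMX. Leaving out 1 array also brought the difference between the replicate numbers into the group comparisons that used it.

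With the replicate number as a block, 0 probe sets passed in the 6 other comparisons. Socs2 after 4 h was at -1.81 ± 0.76, and no call of a member changed. In all 10 pairs of groups the differences between the numbers were positively correlated (0.21 to 0.527 over 22519 brighter probe sets). Same-numbered arrays thus shared a part of their signal, though the labels do not name what they share. The fit without the block was kept as the main one, and its errors include that shared part. After 4 h the limma standard error was 1.09 for Pim1 and 1.74 for Socs3, against 0.40 and 0.89 with the block.

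Socs1, 3 Socs2 probe sets and Pim1 1423006_at lay below the median mean signal of 4.05, so that their values are the least certain.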
